A study of Homo sapiens with 6 samples.

Results

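The genes described here encode enzymes that make serine, carry one-carbon units on folate, and make glutamine and asparagine, and were chosen by name from this branch of metabolism. Of the 9 genes named, 7 had a probe set paired with their symbol: PHGDH, PSAT1, PSPH, SHMT2, MTHFD2, GLUL and ASNS. The signals of SHMT1 and GLS2 were not analysed here. The 7 stand among 17687 genes measured on 6 single-colour arrays of 4175 cells, a lung-metastatic derivative of the triple-negative breast tumour line MDA-MB-231. Cells of the sicontrol group (3 arrays) were treated with a control siRNA, and those of the siPGC1alpha group (3 arrays) with an siRNA to PGC-1alpha, the product of PPARGC1A. In both groups the siRNA was added 24 hours after plating and treatment lasted 48 hours. The cells are a single line, all 6 samples received an siRNA, and separate cultures for the replicates are not stated, so a p-value here reflects a spread that may be technical.

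Serine is built from a glycolytic intermediate in consecutive steps run by PHGDH, PSAT1 and PSPH, and SHMT enzymes then split it into glycine and a one-carbon unit on tetrahydrofolate. MTHFD2 passes that unit along the mitochondrial folate pathway, which feeds purine and thymidylate synthesis. Glutamine supplies nitrogen to many of these reactions: PSAT1 takes its amino group from glutamate, GLUL joins ammonia to glutamate to form glutamine, and ASNS moves the amide of glutamine to aspartate. Several of these genes, ASNS, PHGDH, PSAT1, SHMT2 and MTHFD2 among them, are known targets of ATF4, the transcription factor of amino acid shortage. MDA-MB-231 is known as a line with little PHGDH that takes serine from its medium, which arrays of 1 line cannot show. On the control arrays here the PHGDH signal was not low, with a mean of 9.86, among the 10% of genes at 9.05 to 9.88. No other line was measured for comparison. PGC-1alpha is a transcriptional coactivator best known for driving mitochondrial biogenesis, and the comparison asks which transcripts depend on it in these cells.

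The siPGC1alpha replicate 1 array stood apart, correlating across genes with the other 5 arrays at a Pearson r of 0.585 to 0.604, against 0.995 to 0.996 among those 5. Genes are not independent replicates, and the correlations describe the arrays only. Its 63 ERCC spike-in probe sets had a median of 6.50 against 5.04 to 5.11 on the controls, and that array is therefore shown apart from replicates 2 and 3. The probe set of PPARGC1A read 6.45, 6.49 and 6.49 on the control arrays, 6.52 and 6.47 on siPGC1alpha replicates 2 and 3, and 7.95 on replicate 1. No siPGC1alpha array lay below the lowest control, so a lower transcript was not seen. The signal was rather dim, with a control mean of 6.48, among the 10% of genes at 6.06 to 6.70. Control means ran from 4.37 to 10.77 for 7 leukocyte markers and from 4.14 to 7.57 for 6 endothelial markers, on both sides of that value. With no detection call, these values cannot show whether the transcript was lowered. The samples are therefore named by their labels, and no direction below can be tied to less PPARGC1A. In the labelled line, 9 measured mesenchymal markers such as VIM, AXL and CAV1 had control means from 9.22 to 12.80. Among 10 luminal and epithelial markers the control means ran from 2.76 to 7.83, with CDH1 at 3.97 and PGR at 2.76. GATA3 at 7.83 and EPCAM at 7.43 lay above the control array medians of 7.28 to 7.29.

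ASNS had the largest departure of the 7 genes on siPGC1alpha replicate 1 and PSAT1 the smallest, so the promoters of these 2 genes are shown. The choice rests on that single deviating array without regard to signal level, and a link of promoter sequence to departure was not tested. Each runs from 250 bases before to 50 bases after the start in RefSeq on GRCh38.p14, read 5′ to 3′ on the gene's strand. The ASNS window lies at chr7:97872359-97872658 on the minus strand, and the PSAT1 window at chr9:78296875-78297174 on the plus strand. Capitals mark a match to TGATGNAA, the core letters of the elements that ATF4 binds with C/EBP factors, searched on both strands.
ASNS: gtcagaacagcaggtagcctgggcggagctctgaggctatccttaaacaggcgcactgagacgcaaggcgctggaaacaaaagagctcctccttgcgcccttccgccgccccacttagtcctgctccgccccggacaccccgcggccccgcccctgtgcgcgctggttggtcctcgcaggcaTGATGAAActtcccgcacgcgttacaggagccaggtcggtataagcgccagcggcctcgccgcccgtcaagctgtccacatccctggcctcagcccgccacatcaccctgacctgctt
PSAT1: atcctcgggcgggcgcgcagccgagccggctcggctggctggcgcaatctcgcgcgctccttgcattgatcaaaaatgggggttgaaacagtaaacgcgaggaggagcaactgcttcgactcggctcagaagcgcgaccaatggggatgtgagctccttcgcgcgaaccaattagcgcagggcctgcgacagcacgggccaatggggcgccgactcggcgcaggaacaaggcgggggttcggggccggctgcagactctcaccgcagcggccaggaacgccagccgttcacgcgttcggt

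The match in ASNS covers positions -68 to -61 from the start, on the gene's strand, and the ASNS promoter is known for a nutrient-sensing element bound by ATF4. RefSeq windows were used for 7 of the 9 named genes, 9 windows in all: PHGDH, PSAT1, SHMT1, MTHFD2 and GLS2 with 1 each, and GLUL and ASNS with 2 each. SHMT1 and GLS2 thus have a window and no signal here, and PSPH and SHMT2 a signal and no window. Of the 9 windows, the ASNS window shown was the only one with the match. The second ASNS window, for a start further downstream, had none. Of all 35116 promoter windows of this length, 3.62% hold the motif. None of the 9 windows held CACGTG, the E-box that MYC binds (7.26% of all windows), or AAGGTCA, a core site of estrogen-related receptors, which PGC-1alpha coactivates (3.92%), on either strand. These are matches of letters and say nothing of binding. The windows of PHGDH, MTHFD2 and PSAT1 held 52.7%, 62.7% and 66.0% G and C, and that of ASNS shown here 65.3%.

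None of the 7 genes differed between siPGC1alpha and control arrays past the test's threshold, either over 6 arrays or without replicate 1. On replicates 2 and 3 their differences from the control mean ran from -0.18 (GLUL) to 0.087 (MTHFD2) on the log2 scale, with a median of 0.033 against 0.0080 over all genes. The test was limma on the log2 signals of all genes with Benjamini-Hochberg adjustment and a threshold of 0.05. It called 0 of 17687 genes (0%) over 6 arrays, where 3 genes had an unadjusted p under 0.05 (0.017%). Without replicate 1 it also called 0 (0%), with 786 genes at an unadjusted p under 0.05 (4.44%), none of them among the 7.

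PHGDH, phosphoglycerate dehydrogenase, takes the first step of serine synthesis. It read 9.83, 9.89 and 9.85 on sicontrol replicates 1, 2 and 3, and 9.91 on both siPGC1alpha replicates 2 and 3. These 5 values lay within 0.085 of each other, a narrower range than in 95.9% of genes, a share not matched for signal level. The median control SD was 0.139 in the dimmest 10% of genes and 0.067 in the 10% that holds PHGDH. The 2 siPGC1alpha arrays were above every control. The difference was 0.058 (SE 0.071, 95% interval from -0.11 to 0.23), a ratio of 1.04 with an interval of 0.926 to 1.17 (limma adjusted p = 0.9998). On replicate 1 it read 8.18, below all other arrays.

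PSAT1, phosphoserine aminotransferase, takes the second step and yields alpha-ketoglutarate beside phosphoserine. It read 11.70, 11.75 and 11.72 on the controls and 11.75 and 11.77 on siPGC1alpha replicates 2 and 3. The groups overlapped within a range of 0.066, and they differed by 0.033 (SE 0.070, 95% interval from -0.14 to 0.20, limma adjusted p = 0.9998). It was the member closest to its control mean on replicate 1, at 11.44.

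PSPH, phosphoserine phosphatase, releases serine in the third step. Its signal was 8.05, 7.87 and 7.90 on the controls and 7.83 and 7.98 on siPGC1alpha replicates 2 and 3, which lay on either side of the control mean of 7.94 ± 0.094 (SD, n = 3). The difference was -0.035 (SE 0.091, 95% interval from -0.25 to 0.18, limma adjusted p = 0.9998). Its direction turned to 0.018 without sicontrol replicate 1 and to 0.040 without siPGC1alpha replicate 2. On replicate 1 it read 8.46, above the other 5 arrays.

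SHMT2, mitochondrial serine hydroxymethyltransferase, splits serine into glycine and a one-carbon unit. It read 12.44, 12.53 and 12.54 on the controls and 12.54 on both siPGC1alpha replicates 2 and 3, close together on all 5 arrays. The difference was 0.040 (SE 0.074, 95% interval from -0.14 to 0.22, limma adjusted p = 0.9998). The 2 siPGC1alpha arrays lay just above the highest control, and replicate 1 read 11.17, below all others.

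MTHFD2, the mitochondrial dehydrogenase and cyclohydrolase of folate, read 9.96, 9.93 and 10.06 on the controls and 10.01 and 10.13 on siPGC1alpha replicates 2 and 3. The groups overlapped, with replicate 2 inside the control range and replicate 3 above it. Its difference was 0.087 (SE 0.082, 95% interval from -0.11 to 0.28), a ratio of 1.06 with an interval of 0.928 to 1.22 (limma adjusted p = 0.9998). On siPGC1alpha replicate 1 it read 7.06, far below the other arrays.

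GLUL, glutamine synthetase, read 7.12, 6.82 and 6.90 on the controls and 6.63 and 6.91 on siPGC1alpha replicates 2 and 3. One of these 2 arrays lay below every control and the other inside their range. The difference was -0.18 (SE 0.12, 95% interval from -0.47 to 0.12), a ratio of 0.885 with an interval of 0.721 to 1.09 (limma adjusted p = 0.9998). It came to -0.038 without siPGC1alpha replicate 2 and to -0.32 without replicate 3. On replicate 1 the signal was 8.52, above all 5 other arrays.

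ASNS, asparagine synthetase, was the member that varied most among the controls, at 9.77, 9.60 and 9.37. This range of 0.39 was wider than that of 87.5% of genes, whose median range was 0.19. Replicates 2 and 3 read 9.45 and 9.56, both inside the control range. The difference was -0.079 (SE 0.12, 95% interval from -0.37 to 0.22, limma adjusted p = 0.9998), and 0.014 without sicontrol replicate 1. On replicate 1 ASNS read 5.47, the farthest of the 7 from its control mean of 9.58 ± 0.20 (SD, n = 3).

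**Figure D1:**
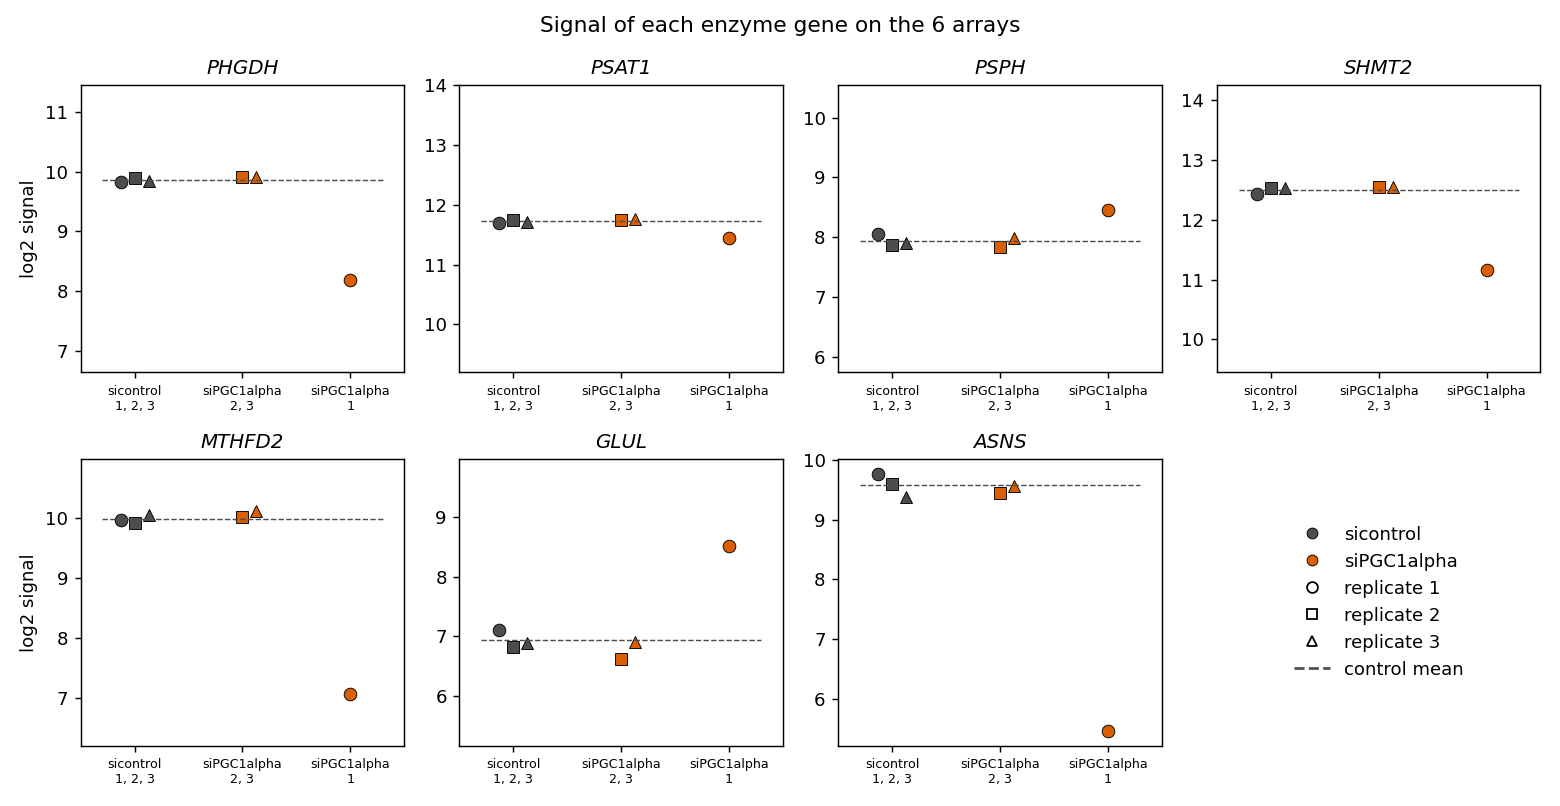
Log2 signal (vertical axis, each panel spanning the same number of log2 units) of 7 enzyme genes on the 3 sicontrol arrays, on siPGC1alpha replicates 2 and 3, and on siPGC1alpha replicate 1, with 1 point per array and a dashed line at the control mean. Replicates 2 and 3 sit beside the controls in every panel, whereas on replicate 1 ASNS is at 5.47, MTHFD2 at 7.06 and PHGDH at 8.18. GLUL at 8.52 and PSPH at 8.46 on replicate 1 are above the same gene's other arrays.

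The groups were also compared by whether their values overlapped. Without replicate 1, PHGDH and SHMT2 were above every control, 2 of the 7 genes, where 11.3% of all genes were so placed, and 0 were below every control (8.42% of all genes). Over 6 arrays the groups of all 7 genes overlapped (5.42% of all genes higher and 1.85% lower without overlap). Without replicate 1 the interval of each of the 7 genes lay within a 2-fold difference in either direction, as it did for 99.9% of all genes.

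With all 6 arrays the differences were set by replicate 1, and the intervals widened. ASNS differed by -1.42 (SE 1.11, 95% interval from -4.11 to 1.27) and MTHFD2 by -0.92 (SE 0.83, interval -2.94 to 1.11). PHGDH differed by -0.52 (SE 0.51), SHMT2 by -0.42 (SE 0.42) and PSAT1 by -0.072 (SE 0.22). GLUL and PSPH pointed the other way, with 0.41 (SE 0.52) and 0.15 (SE 0.26). The limma adjusted p ran from 0.663 to 0.824 over the 7 genes, and for 6 of them, all but ASNS, the sign turned when replicate 1 was left out.

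**Figure D2:**
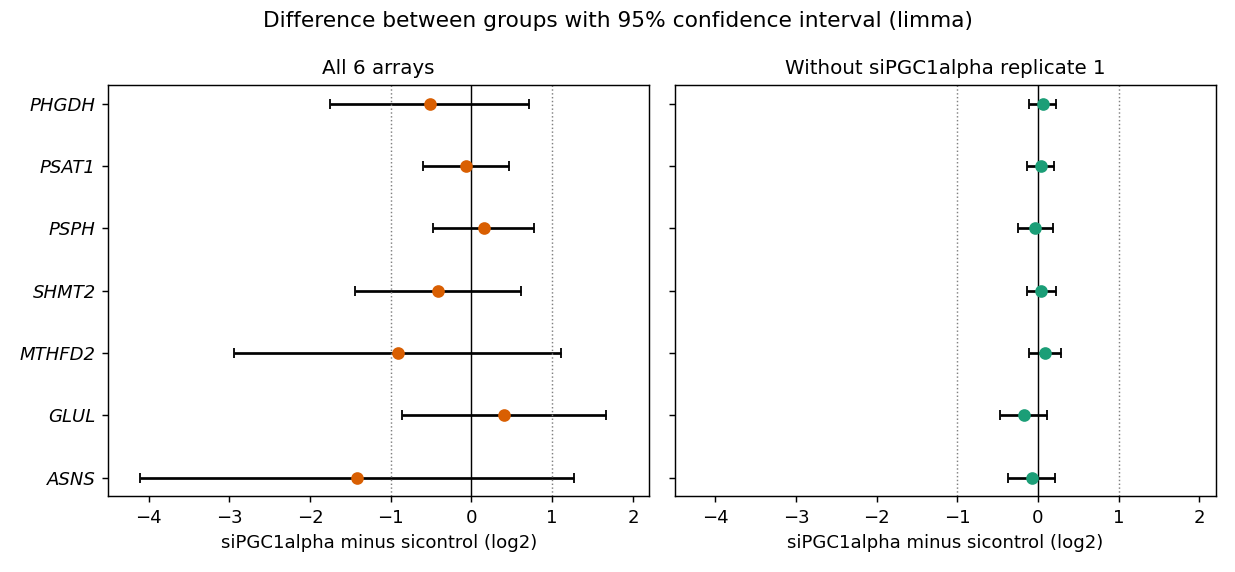
Difference in mean log2 signal, siPGC1alpha minus sicontrol (horizontal axis), for 7 enzyme genes, with limma's 95% confidence interval as bars, over all 6 arrays (left) and without siPGC1alpha replicate 1 (right). Dotted lines mark a 2-fold difference; on the right the points run from -0.18 to 0.087 and every bar lies between the dotted lines, and on the left every bar crosses 0.

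On siPGC1alpha replicate 1 the enzymes departed by unequal amounts and in both directions. ASNS lay -4.11 from its control mean on the log2 scale, MTHFD2 -2.92, PHGDH -1.68 and SHMT2 -1.34. At 5.47, ASNS was below the ERCC median of 6.50 on that array and above the median of 3.79 of the negative control probe sets. With no detection call, its departure is not given as a fold. PSAT1 lay -0.28 from its mean, while PSPH lay 0.52 and GLUL 1.57 above theirs. Of the 7 genes, 4 were over 1 below the control mean, as were 25.3% of all genes, and 1 was over 1 above it, as were 38.9%. A single array allows no test of these values.

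Over all genes, departures on that array followed the control signal, with medians below 0 among bright genes and above 0 among dim ones, so the members are given beside genes of like signal. Among the 10% of genes with the highest control signal (9.88 to 13.96), the median departure was -2.13 and the middle 80% ran from -4.60 to 0.18. MTHFD2, SHMT2 and PSAT1 belong there, and all of them lay inside that span, MTHFD2 below the median and the other 2 above it. PHGDH and ASNS belong to the next 10% (9.05 to 9.88), with a median of -1.34 and a span from -3.74 to 0.64. PHGDH was near that median, and ASNS was below the span. GLUL, among genes of signal 6.70 to 7.28, and PSPH, among those of 7.83 to 8.41, lay above their medians of 1.05 and -0.12 and inside their spans. Genes were also ranked within the arrays into 10 bins of equal size, numbered from dim to bright. ASNS was in bin 9 on the controls and in bin 2 on replicate 1, MTHFD2 in bin 10 and bin 5, and GLUL in bin 5 and bin 8. PSAT1 and SHMT2 were in bin 10 on both.

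**Figure D3:**
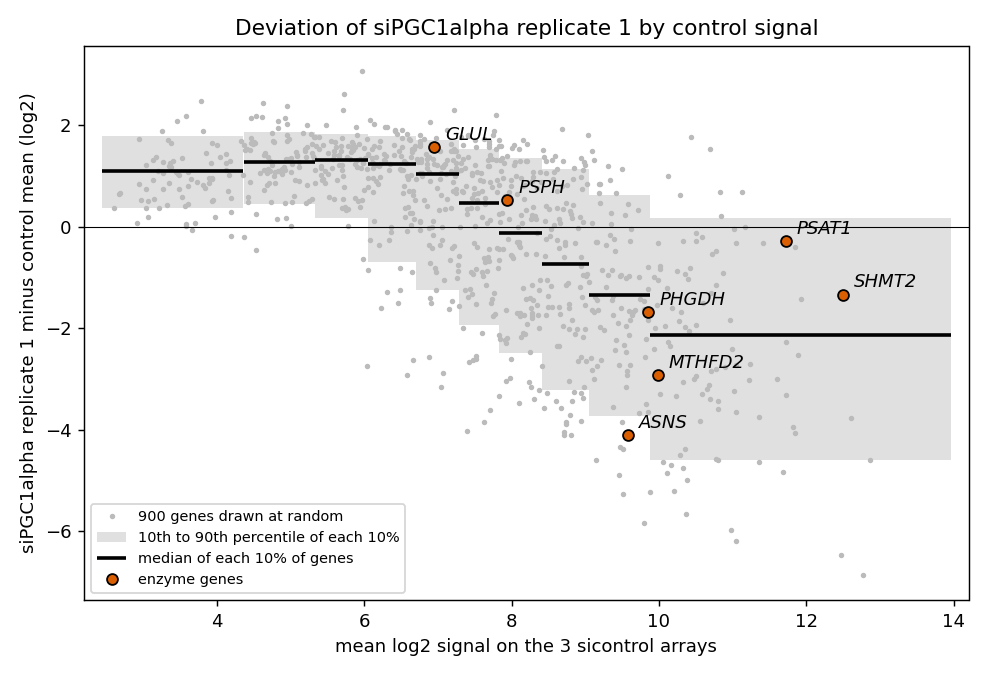
Log2 signal on siPGC1alpha replicate 1 minus the mean of the 3 sicontrol arrays (vertical axis) against that control mean (horizontal axis) for 7 enzyme genes (orange) and 900 genes drawn at random (grey), with the median (black bars) and the 10th to 90th percentile (shaded) of all genes in each 10% of control signal. The medians run from 1.10 in the dimmest 10% to -2.13 in the brightest, and ASNS at -4.11 is the only one of the 7 outside its shaded span.

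Quantile normalization of the 6 arrays left the picture on replicate 1 similar for ASNS at -4.47, MTHFD2 at -2.90, PHGDH at -1.38 and GLUL at 1.85. It turned PSAT1 from -0.28 to 0.43, and moved SHMT2 to -0.58 and PSPH to 0.81. Markers of cell types were read on the same array beside the dimmer 50% of genes by control signal, whose medians were 1.05 to 1.32. The median departure was 1.28 for 7 leukocyte markers, 1.11 for 6 endothelial markers, 1.29 for 6 markers of fibroblasts and stroma and 1.22 for 10 luminal and epithelial markers, close to those of dim genes in general. Single dim markers departed further. FOXA1 at 2.59 and ITGAM at 1.94 lay past the 90th percentile of 1.84 for genes of signal 5.33 to 6.06. TEK at 1.94 lay past that of the dimmest 10% at 1.80, and LUM at 0.040 lay below their 10th percentile of 0.37. The lists also held brighter markers, which are given beside genes of like signal. COL1A2 of the stroma list (control mean 8.94) lay 1.47 above its mean, past the 90th percentile of 1.13 (median -0.74). CD79A, a leukocyte marker (7.89), lay 1.42 above its mean, past that percentile at 1.35 (median -0.12). GATA3, EPCAM, CD14 and VWF lay inside their spans. CD68, a leukocyte marker with a control mean of 10.77, read 7.96 on replicate 1, also inside its span. The 9 mesenchymal markers of the line had a median departure of -1.72, with 7 below 0 and 2 above. The 2 above, MSN at 1.32 and SPARC at 1.09, were among the brightest 10% of genes, whose median was -2.13. Both lay past the 90th percentile of 0.18 for those genes. ANXA1 at -5.13 lay below their 10th percentile of -4.60, and VIM at -0.21 lay inside the span. The median level of the leukocyte list was 7.50 on replicate 1 against 5.92 to 6.25 on the controls, that of the endothelial list 7.21 against 6.48 to 6.78, and that of the fibroblast and stroma list 7.09 against 5.63 to 5.88. The part of these markers in the values of the 7 enzymes was not tested. The median departure of all genes on replicate 1 was 0.61.

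The remaining genes of these pathways were close to the controls on replicates 2 and 3, and 0 passed limma's test in any list with or without replicate 1. In the list of serine and glycine metabolism, 9 of 13 genes were measured, with a median difference of 0.0046, 5 above 0 and 4 below. Of all genes, 53.5% were above 0. GNMT, which methylates glycine, read 5.28 and 5.22 on replicates 2 and 3 against controls of 5.38 to 5.71, a difference of -0.34 (SE 0.11, limma adjusted p = 0.9998), and was the 1 gene of the list with an unadjusted p under 0.05. CTH, which releases cysteine in transsulfuration, differed by 0.15 (SE 0.090), and SRR, serine racemase, by -0.10 (SE 0.074).

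Folate enzymes did not pass the test, and most differences were small and above 0. Of 22 listed genes, 20 were measured, with a median of 0.040, 15 above 0 and 5 below, where 53.5% of all genes were above 0. Over all genes the median difference varied with control signal. It was 0.015 in the brightest 10%, 0.023 in the next 10% and -0.014 among genes of signal 5.33 to 6.06. The part of signal level in the count for this list was not tested. MTHFD2L, the paralogue of MTHFD2, differed by 0.18 (SE 0.11), and AHCY, which clears S-adenosylhomocysteine, by 0.099 (SE 0.087). MTHFD1, the cytosolic enzyme with 3 activities, differed by 0.068 (SE 0.072), and MTHFD1L, the mitochondrial formate-releasing enzyme, by -0.0027 (SE 0.090). On replicate 1 MTHFD1 lay -4.37 and MTHFD1L -2.38 from the control mean, and MTHFD2L lay -0.51.

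Glutamine, glutamate and asparagine enzymes had a median of 0.041 over 19 measured of 24 listed genes, with 16 above 0 and 3 below. Over all genes 53.5% were above 0, a share not matched for signal level. PYCR1, which makes proline, differed by 0.091 (SE 0.077), SLC1A5, a glutamine transporter, by 0.081 (SE 0.073), and PRODH, which breaks proline down, by -0.097 (SE 0.095). Their differences ran from -0.097 to 0.091, narrower than in the other lists.

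Regulators of these enzymes and genes of the ATF4 response had a median of 0.052 over 22 of 25 listed genes, with 14 above 0 and 8 below. The share above 0 over all genes was 53.5%. ATF4 itself read 10.76, 10.69 and 10.66 on the controls and 10.79 on both replicates 2 and 3, a difference of 0.089 (SE 0.073). MYC, which drives biosynthetic genes, read 10.70 on both against a control mean of 10.61 ± 0.052 (SD, n = 3), a difference of 0.083 (SE 0.074). TRIB3, a pseudokinase induced by ATF4, differed by 0.16 (SE 0.076), SESN2, a leucine sensor, by 0.20 (SE 0.089), VLDLR, a lipoprotein receptor, by 0.28 (SE 0.15), and DDIT3, a stress transcription factor, by -0.0070 (SE 0.091). ATF4, MYC, TRIB3 and SESN2 are among 6 genes of this list that lay above every control without overlap (11.3% of all genes), and none passed the test (limma adjusted p = 0.9998 for each). On replicate 1 ATF4 lay -2.85 from the control mean and MYC -1.78, while TRIB3 lay 0.21 above and DDIT3 0.023 above. ATF4 and MYC were among the brightest 10% of genes, with a median departure of -2.13 and a span from -4.60 to 0.18. Both lay inside that span, ATF4 below the median and MYC above it. TRIB3 and DDIT3 also lay inside the spans of genes of like signal, whose medians were -0.12 and 0.47. A link of ATF4 to the enzymes on that array was not tested.

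**Figure D4:**
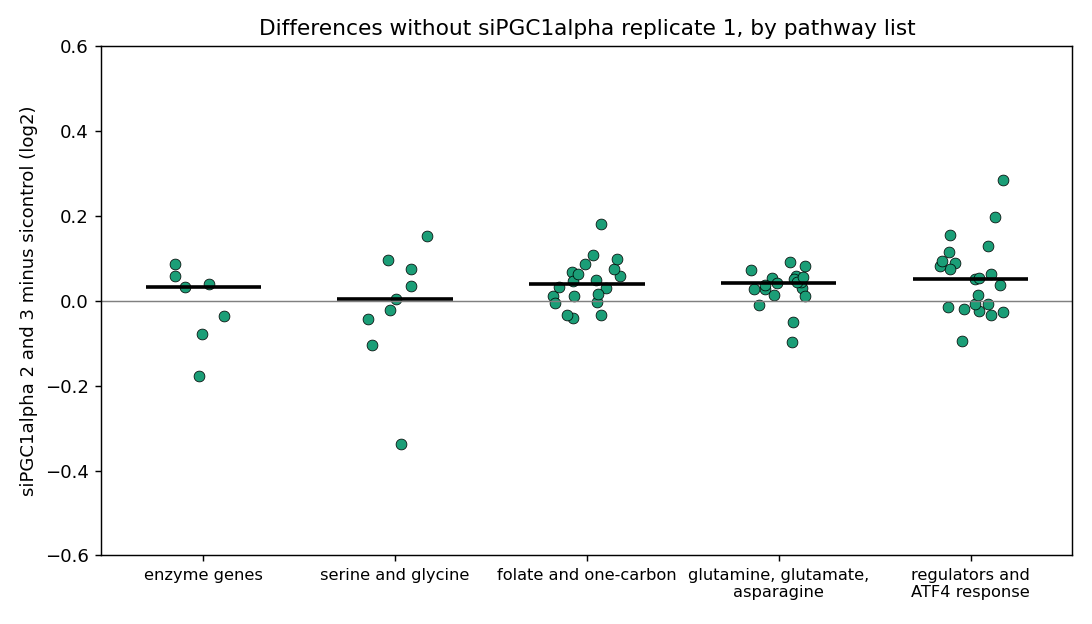
Difference in log2 signal between siPGC1alpha replicates 2 and 3 and the controls (vertical axis) for the 7 enzyme genes and 4 lists of related genes, with 1 point per gene and a bar at each median. The medians lie between 0.0046 and 0.052, and the points run from -0.34 (GNMT) to 0.28 (VLDLR).

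The 3 genes whose 6-array profile, as signal minus control mean, lay closest to the median profile of the 7 enzymes were HSPA5, FLG and SEPTIN10, at Euclidean distances of 0.058, 0.059 and 0.065. HSPA5 encodes a chaperone of the endoplasmic reticulum, FLG filaggrin of the skin barrier, and SEPTIN10 a septin. They read 10.19, 4.49 and 8.11 on replicate 1 against control means of 11.57, 5.79 and 9.41, and the likeness over these arrays rests mainly on replicate 1, where the median of the enzymes was -1.34.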

How the data were processed

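Transcript levels were measured on single-colour arrays in 6 samples, labelled with a low-input GeneChip kit from 10 ng of RNA each per the labels' protocols. The authors deposited 1 value per probe set and sample, taken here as a log2 signal from its range. How they corrected background, summarised probes and normalized is not given in the sources used. A further table with 6 columns that match no sample label was not used. Of 24320 probe sets, 17709 carried 1 gene symbol in the platform annotation, and the highest-mean probe set per gene left 17687 genes, with 1 probe set for each of the 7 enzymes. Neither detection calls nor the probe sequences were used, and RefSeq names 4 pseudogenes after PSAT1, 1 after PSPH, 7 after MTHFD2, 6 after GLUL and 5 after ASNS, whose share of the signal cannot be judged. Precision is limited by the small number of arrays.

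The test was limma 3.58.1 under R 4.3.3 (eBayes after lmFit, no covariates, two-sided, Benjamini-Hochberg over all genes) on 6 arrays and on 5 without siPGC1alpha replicate 1. It was also tried on simulated data with the spread of those 5 arrays for both fits. That trial held no deviating array, so it does not bear on the fit over the 6 real arrays. Differences are siPGC1alpha minus sicontrol. Alternatives are listed with their effect in the closing section. Beside the 7 enzymes and PPARGC1A, the text names fixed paralogues and regulators, the 3 genes per list with the smallest unadjusted p without replicate 1, markers, and the 3 genes nearest in profile; listed genes with no paired probe set were not analysed here. The members and lists were chosen with earlier results of these data known. A comparison of protein sequences between paralogues was planned and not run.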

Additional observations from a re-analysis of the deposited data

Results flagged for a closer look

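Control probe sets, which take no part in the comparison of genes, were brighter on siPGC1alpha replicate 1 than on any sicontrol array. ERCC spike-in probe sets (63) had a median of 6.50 on it, while the highest control array had 5.11 and siPGC1alpha replicates 2 and 3 had 5.05 and 5.06. Negative control probe sets (612) had a median of 3.79 on it, while the highest control array had 3.44 and replicates 2 and 3 had 3.37 and 3.41.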

How the results depend on the processing

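The count of genes called by limma was 0 in both fits under every setting run, and leaving out each array in turn gave 0 to 0. The settings were quantile normalization, centring on the array median, genes above the median signal, averaging over probe sets, a trended robust eBayes, the replicate block, each array left out and, over 6 arrays, array weights. The unadjusted p was under 0.05 for 0 to 1141 genes over 6 arrays and for 366 to 1334 over 5. None of the 7 enzymes passed under any setting (lowest limma adjusted p = 0.439 over 6 arrays and 0.850 over 5). GLUL had no value among genes above the median signal.

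Over 6 arrays quantile normalization turned PSAT1 to 0.14. Array weights, estimated at 0.011 for siPGC1alpha replicate 1 and 1.62 to 3.29 for the other arrays, turned PHGDH to 0.053, PSAT1 to 0.028, PSPH to -0.031, SHMT2 to 0.027, MTHFD2 to 0.064 and GLUL to -0.17. Leaving out arrays gave -2.12 to -0.079 for ASNS, -0.18 to 0.77 for GLUL, -1.45 to 0.087 for MTHFD2, -0.81 to 0.058 for PHGDH, -0.13 to 0.033 for PSAT1, -0.035 to 0.28 for PSPH and -0.65 to 0.040 for SHMT2, and apart from ASNS the sign turned in each case without siPGC1alpha replicate 1. Over 5 arrays the replicate block turned PSPH to 0.018 and ASNS to 0.014, the same values as without sicontrol replicate 1, since that number then has no partner; it changed no call. Deviations of same-numbered arrays from their group means correlated at -0.25, -0.18 and -0.086 across genes. The siPGC1alpha mean included the deviating replicate 1, so these values cannot show whether the numbers pair the samples. Leaving out arrays gave -0.18 to 0.014 for ASNS, -0.11 to 0.040 for PSPH, -0.32 to -0.038 for GLUL, 0.031 to 0.14 for MTHFD2, 0.045 to 0.077 for PHGDH, 0.021 to 0.047 for PSAT1 and 0.0078 to 0.058 for SHMT2.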
